A study of Mus musculus with 13 samples.

Results

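The 41 genes described here encode proteins of G2 and mitosis: the cyclins and the kinase that start mitosis, other mitotic kinases, the spindle checkpoint and the anaphase-promoting complex, the chromosomal passenger complex, centromere and chromosome proteins, mitotic kinesins, spindle microtubule proteins and proteins of cytokinesis. They were taken by symbol: a row of the count table was a member when its Ensembl identifier, without the version, carried a listed symbol in the GENCODE mouse annotation of GRCm38. All 41 symbols were found, each in 1 row, among 54532 genes in the table. The cells were YUMM1.7, a mouse cutaneous melanoma line. They were treated with DMSO, the solvent control, with ADAR1i-124 at 10 µM for 12 h, with 5-AZA-CdR at 1 µM for 72 h, or with both drugs. ADAR1i-124 is a small-molecule inhibitor of ADAR1, the enzyme that edits adenosine to inosine in double-stranded RNA, and 5-AZA-CdR is a cytidine analogue that blocks DNA methyltransferases. For the combined treatment 5-AZA-CdR at 1 µM was given for 72 h and ADAR1i-124 then for another 12 h. This was done with ADAR1i-124 at 10 µM and also at 1 µM, and the labels of the precipitated samples name no dose. Each treatment was read in total RNA, in RNA precipitated with J2, a monoclonal antibody against double-stranded RNA, and in RNA precipitated with Z22, an antibody against RNA in the Z form. A single IgG precipitation served as the background of the antibodies, and its cell treatment was not given. Every group held 1 library of 1 cell line, so no p-value could be given between treatments. The intervals below cover counting error or, for medians, the spread of the genes, and no interval covers replicates.

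Entry into mitosis is driven by the kinase CDK1 with cyclin B, its activating partner. Most genes of this program are transcribed late in the cell cycle: in resting and G1 cells the DREAM complex binds cell cycle homology regions near their start sites and holds them off, and in cycling cells B-MYB (Mybl2) and FOXM1 turn them on. CCAAT boxes in these promoters are known as sites of the activator NF-Y. The levels of these RNAs are therefore widely used as a measure of the share of dividing cells in a culture or tumour. In bulk RNA a smaller share of cells in G2 and mitosis and less of these RNAs in each such cell cannot be told apart.

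The promoters are shown because the members moved together and this program is known for shared start-site elements. RefSeq windows on GRCm38.p6 covered 32 of the 41 members, each from 250 bases before the start to 50 bases after it. The letters TTTGAA or TTCGAA, the core of the cell cycle homology region, were looked for on both strands and stood in the windows of 26 of these 32 members (81.2%), against 19.2% of all 32851 windows. CCAAT, also on both strands, stood in 27 members (84.4%), against 37.4% of all windows, and both motifs stood in 24 members (75%), against 7.52%. A match describes the letters of the window and does not show that a factor was bound there. The windows of 6 central members follow, 5′ to 3′ along each gene, with both motifs in capitals on either strand, so that TTCAAA stands for TTTGAA and ATTGG for CCAAT. They are Ccnb2 (chr9:70421505-70421804 on the minus strand), Cdk1 (chr10:69352863-69353162 on the minus strand), Plk1 (chr7:122159185-122159484 on the plus strand), Cdc20 (chr4:118437294-118437593 on the minus strand), Aurka (chr2:172370521-172370820 on the minus strand) and Ube2c (chr2:164769679-164769978 on the plus strand).
Ccnb2: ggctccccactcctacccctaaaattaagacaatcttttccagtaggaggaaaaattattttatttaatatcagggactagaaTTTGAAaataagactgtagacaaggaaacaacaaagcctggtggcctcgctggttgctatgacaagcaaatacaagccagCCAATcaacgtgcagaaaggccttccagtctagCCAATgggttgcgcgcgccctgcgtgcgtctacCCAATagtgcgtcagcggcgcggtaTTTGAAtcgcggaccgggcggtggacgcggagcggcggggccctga
Cdk1: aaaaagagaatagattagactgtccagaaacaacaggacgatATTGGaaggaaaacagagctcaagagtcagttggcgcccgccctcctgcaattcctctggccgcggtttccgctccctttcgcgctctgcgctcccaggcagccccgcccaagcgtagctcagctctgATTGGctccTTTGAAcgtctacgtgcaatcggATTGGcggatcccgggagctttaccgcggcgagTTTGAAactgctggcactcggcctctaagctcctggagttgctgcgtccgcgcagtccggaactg
Plk1: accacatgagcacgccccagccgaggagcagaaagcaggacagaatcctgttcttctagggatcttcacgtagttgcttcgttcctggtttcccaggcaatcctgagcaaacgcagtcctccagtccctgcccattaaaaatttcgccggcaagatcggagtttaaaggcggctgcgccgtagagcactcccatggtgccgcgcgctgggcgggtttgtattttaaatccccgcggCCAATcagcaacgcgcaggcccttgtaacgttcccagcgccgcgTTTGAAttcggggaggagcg
Cdc20: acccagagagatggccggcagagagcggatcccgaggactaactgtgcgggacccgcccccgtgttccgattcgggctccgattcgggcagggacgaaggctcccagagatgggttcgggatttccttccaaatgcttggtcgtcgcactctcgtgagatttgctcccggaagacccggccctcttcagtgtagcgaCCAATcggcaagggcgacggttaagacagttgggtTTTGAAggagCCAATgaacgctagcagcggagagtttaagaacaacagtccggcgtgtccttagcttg
Aurka: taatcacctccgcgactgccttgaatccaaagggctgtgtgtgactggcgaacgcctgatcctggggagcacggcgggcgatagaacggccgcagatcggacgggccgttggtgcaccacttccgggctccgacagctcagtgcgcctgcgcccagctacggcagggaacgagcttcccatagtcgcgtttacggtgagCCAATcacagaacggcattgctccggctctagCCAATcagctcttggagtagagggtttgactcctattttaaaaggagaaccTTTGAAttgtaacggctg
Ube2c: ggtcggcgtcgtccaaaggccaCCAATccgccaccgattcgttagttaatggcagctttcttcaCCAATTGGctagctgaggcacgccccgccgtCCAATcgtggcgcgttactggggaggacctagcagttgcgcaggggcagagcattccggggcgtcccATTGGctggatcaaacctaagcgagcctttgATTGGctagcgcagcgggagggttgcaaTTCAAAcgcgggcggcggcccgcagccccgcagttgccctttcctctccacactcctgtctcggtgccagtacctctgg
In Ccnb2, CCAAT began at positions -87, -54 and -21 from the start, and TTTGAA at positions -167 and 5. Cdk1 held the complement ATTGG at -208, -80 and -48 and TTTGAA at -71 and -15. In Ube2c a CCAAT and an ATTGG overlapped, so that 1 run of capitals there marks both. The window of Ccnb1 held CCAAT at -99 and -67 and neither form of the 6-letter core, so it was not printed.

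The libraries held 8167960 to 34571822 gene counts, at which 3 counts, the floor used here, are 0.0868 to 0.367 counts per 1000000 (CPM), and every member had at least 3 counts in each of the 12 libraries used. The total RNA library of the combined treatment was left out: genes annotated as antisense took 22.6% of its 1245894 counts, against 0.106% to 0.176% in the others. The DMSO libraries of the precipitations need care, and the counts and list medians of the members that rest on them are given below also without them, while single-gene differences from DMSO in J2 and Z22 rest on these libraries alone. In J2, the DMSO library was close to the other libraries over all genes (median Spearman's rho 0.94), but it held the members at a level near those of both libraries with 5-AZA-CdR, and the J2 library with ADAR1i-124 was the one apart on the members. In Z22, Gm42418, a single gene, took 34.9% of the counts of the DMSO library, against 10.6% to 18.9% in the other precipitations, and this library correlated least with the rest (median Spearman's rho 0.85, against 0.90 to 0.95). Labels were checked for 5-AZA-CdR with 27 genes that were at most 0.1 CPM in total RNA with DMSO and ADAR1i-124 and at least 5 CPM with 5-AZA-CdR. Their summed level was 243 to 466 CPM in the 4 precipitations labelled with 5-AZA-CdR and 0.687 to 4.35 CPM in the other 5, as the labels have it. The IgG library, which has no treatment label, was among these 5, at 3.59 CPM. It thus stood with the libraries without the drug. Ratios of libraries with 5-AZA-CdR to IgG therefore set differently treated cells against each other. These genes cannot tell DMSO from ADAR1i-124, nor 5-AZA-CdR from the combination, and those labels were not checked. Of 7 melanocyte lineage markers, Mitf alone reached 1 CPM in any library (9.68 to 33.1 CPM), and Tyr and Tyrp1 had no count.

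In total RNA with DMSO the members ranged from 37.2 CPM (Cdc25c, the phosphatase that activates CDK1) to 895 CPM (Mki67, the proliferation marker that coats mitotic chromosomes), with a median of 95.9 CPM. Per kilobase of annotated exon the order was led by Mki67 at 88.99 and Top2a at 77.1 CPM per kilobase, followed by Ccnb2 at 59.3, while Cdc25c stood last at 7.56. Mki67 and Top2a, the DNA topoisomerase that untangles sister chromatids, were the 2 highest members by CPM in 11 of the 12 libraries. The summed level of the 41 genes differed between libraries over a wide range. It was 6495 CPM (95% counting interval 6457 to 6533) in total RNA with DMSO, 4877 CPM with ADAR1i-124, 6093 CPM in IgG, 7375 CPM in J2 with ADAR1i-124 and 6470.1 CPM in Z22 with ADAR1i-124. It was 3862 CPM in Z22 with 5-AZA-CdR and 3349.5 CPM in Z22 with DMSO. It was 1696, 1621 and 1463 CPM in J2 with 5-AZA-CdR, DMSO and the combination, 891 CPM in total RNA with 5-AZA-CdR and 625 CPM in Z22 with the combination. For 33 members the lowest of the 12 levels was that of Z22 with the combination, for 5 that of total RNA with 5-AZA-CdR and for 3 that of Z22 with DMSO. Z22 with the combination and total RNA with 5-AZA-CdR thus held the members at their lowest.

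**Figure D1:**
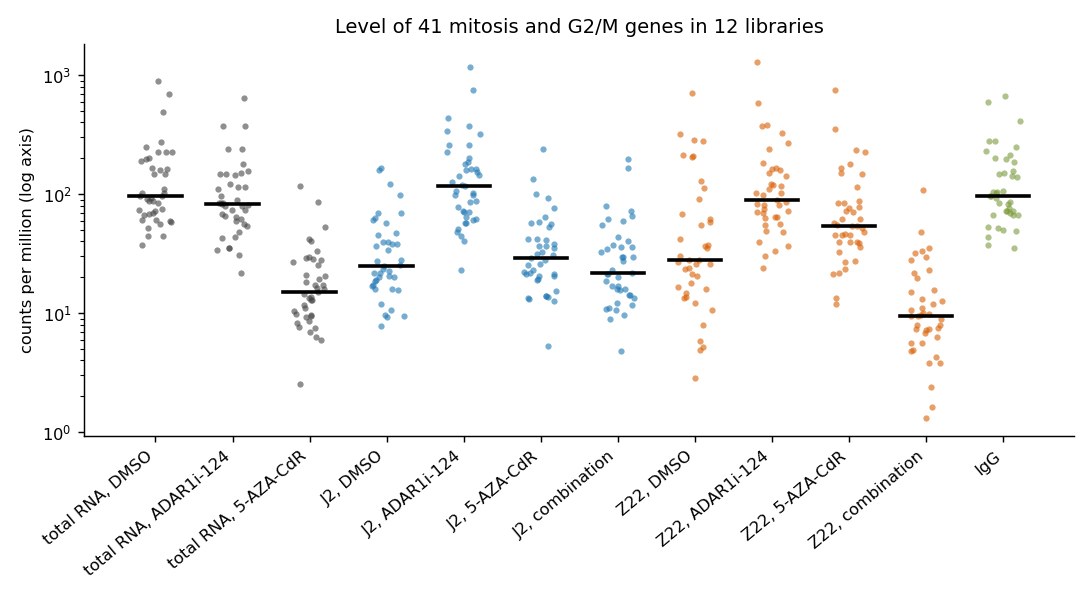
Each point is 1 of the 41 members in 1 library (CPM, log axis), and each black bar is the median of the 41. The median is 95.9 in total RNA with DMSO and 15.1 with 5-AZA-CdR, 24.7 in J2 with DMSO and 117 with ADAR1i-124, and 9.40 in Z22 with the combination.

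The first question was how the DNA demethylating drug changed these RNAs. In total RNA all 41 members were lower by at least 2-fold with 5-AZA-CdR than with DMSO, and 8.96% of all genes tested were. The median log2 difference, on the scale of CPM plus 0.5 used for all log2 differences, was -2.73 (95% interval of the median -2.93 to -2.58), against 0.06 for all genes. The summed level fell 7.29-fold (counting interval 7.20 to 7.38). No member was closer to its DMSO level than Incenp, the scaffold of the chromosomal passenger complex, at 95.9 CPM with DMSO and 29.4 CPM with 5-AZA-CdR (log2 difference -1.69, counting interval -1.82 to -1.59). Against ADAR1i-124 in place of DMSO all 41 were again lower by at least 2-fold (7.54% of all genes), with a median of -2.42.

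Of the role groups, mitotic entry had the lowest median, -3.64 over 5 genes. Ccnb1 (ENSMUSG00000041431, chr13:100778650-100786570), cyclin B1, was at 189 CPM with DMSO, 115 CPM with ADAR1i-124 and 13.3 CPM with 5-AZA-CdR, so that the last was 13.7-fold below DMSO (log2 difference -3.77, -3.97 to -3.68). Ccnb2, cyclin B2, was at 90.9, 47.7 and 5.96 CPM in the same order, and its log2 difference with 5-AZA-CdR (-3.82) was the largest of the 41. The intervals of these cyclins overlapped. Cdc25c went from 37.2 to 2.52 CPM (-3.64), and Ccna2, cyclin A2, from 228 to 20.3 CPM (-3.45). Cdk1 (ENSMUSG00000019942, chr10:69335146-69352938), the kinase these cyclins activate, was at 224, 121 and 33.03 CPM, a log2 difference of -2.74 (-2.86 to -2.67) with 5-AZA-CdR, and its interval lay above those of the cyclins named. Cdk1 stood near the median of the 41.

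Among the other mitotic kinases, Plk1 (ENSMUSG00000030867, chr7:122159439-122169873), which drives centrosome maturation and mitotic exit, was at 69.4 CPM with DMSO, 114 CPM with ADAR1i-124 and 12.8 CPM with 5-AZA-CdR. It was the only member of the 41 whose level with ADAR1i-124 was over 1.5 times that with DMSO. Aurka, the centrosome kinase, was at 72.5, 84.7 and 16.2 CPM in that order. Cdc20 (ENSMUSG00000006398, chr4:118432901-118437352), which activates the anaphase-promoting complex, fell from 84.3 to 6.97 CPM with 5-AZA-CdR, 11.4-fold, and Ube2c, the ubiquitin-conjugating enzyme of the same complex, from 110.0 to 9.69 CPM, 10.8-fold. The log2 differences of both, -3.51 (-3.80 to -3.40) and -3.44 (-3.68 to -3.34), lay below those of the checkpoint kinases Bub1b (-2.50, -2.63 to -2.42) and Ttk (-2.92, -3.20 to -2.80), while Bub1 (-3.16, -3.38 to -3.06) overlapped with Ube2c. Aurkb (ENSMUSG00000020897, chr11:69045647-69051664), the kinase of the chromosomal passenger complex, was at 44.7, 35.3 and 8.56 CPM, a log2 difference of -2.32 with 5-AZA-CdR. The other genes of that complex were at -2.68 (Birc5, survivin), -2.38 (Cdca8, borealin) and -1.69 (Incenp).

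Top2a (ENSMUSG00000020914, chr11:98992943-99024189) was at 695 CPM with DMSO, 374 CPM with ADAR1i-124 and 116 CPM with 5-AZA-CdR, and Mki67 (ENSMUSG00000031004, chr7:135689784-135716361) at 895, 640.4 and 86.6 CPM. With 5-AZA-CdR the 2 genes changed places: the log2 difference was -2.58 (-2.64 to -2.53) for Top2a and -3.36 (-3.43 to -3.31) for Mki67, and these intervals did not overlap. Cenpa, the centromeric histone H3 variant, was among the least lowered members at -1.88 (73.1 to 19.5 CPM), and Cdca2, also of the centromere and chromosome group, was at -2.26. The large kinetochore proteins Cenpe and Cenpf were at -2.92 and -2.88. The 6 kinesins ranged from -2.99 for Kif11, the motor that pushes the spindle poles apart, to -2.05 for Kif18b, and the 6 spindle microtubule proteins from -3.27 (Hmmr) to -2.29 (Prc1). Of the cytokinesis genes, Anln, the anillin of the cleavage furrow, went from 489 to 52.5 CPM (-3.21), Ect2 to -3.13 and Racgap1 to -2.68.

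The second question was whether the ADAR1 inhibitor changed the members in total RNA. None of the 41 passed the 2-fold line in either direction, while 16.4% of all genes did. The median log2 difference from DMSO was -0.34 (-0.49 to -0.24), against -0.09 for all genes, with 35 members below 0 and 6 above. The summed level was 0.751 times that with DMSO (0.744 to 0.758). The largest differences downward were those of Bub1b, a checkpoint kinase (165 to 83.8 CPM, -0.98), Ttk, the kinase MPS1 (-0.95), Ccnb2 (-0.92), Top2a (-0.89) and Cdk1 (-0.89), each short of the line at -1. The largest upward were those of Plk1 (0.71, 0.61 to 0.82), Kif18b (0.37), Prc1, the protein that bundles the central spindle (0.26), Aurka (0.22) and Birc5 (0.20). By role, the medians ran from -0.76 for mitotic entry to -0.01 for the mitotic kinases.

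**Figure D2:**
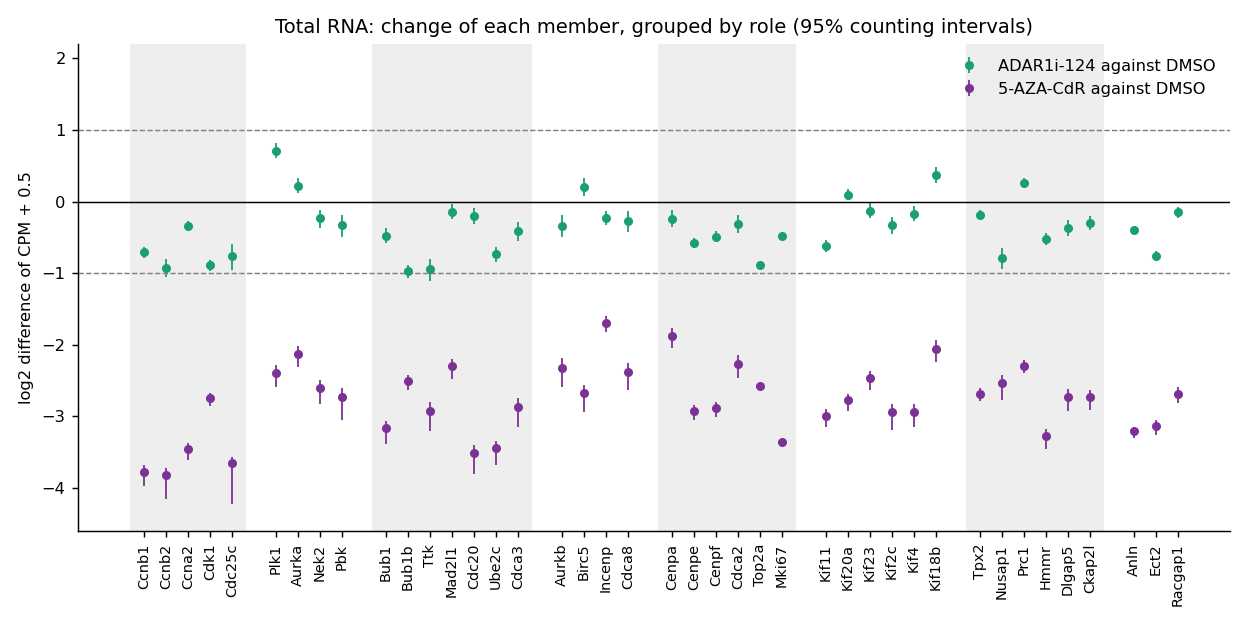
Points are log2 differences of CPM plus 0.5 in total RNA for each member, with 95% counting intervals, for ADAR1i-124 (green) and 5-AZA-CdR (purple) against DMSO. Shaded and white blocks are, from the left, mitotic entry, mitotic kinases, spindle checkpoint and anaphase-promoting complex, chromosomal passenger complex, centromere and chromosome structure, kinesins, spindle microtubule proteins and cytokinesis. All purple points lie under the lower dashed 2-fold line, and all green points lie between the dashed lines.

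Lists of other cell cycle genes gave the context of these values in total RNA with 5-AZA-CdR. Of 45 other G2/M genes 41 were lower by at least 2-fold (8.96% of all genes) and 1, Psrc1, higher, with a median of -2.50. Aspm, a spindle pole protein, had the largest difference of that list, from 168 to 13.7 CPM. Of 35 genes of G1/S and DNA replication 29 were lower and 0 higher, with a median of -1.69, led by Tk1, thymidine kinase, from 98.6 to 14.9 CPM. Among the regulators of G2/M transcription 7 of 19 tested were lower. Foxm1 went from 132 CPM with DMSO and 125 CPM with ADAR1i-124 to 20.8 CPM with 5-AZA-CdR, and Mybl2 from 38.4 and 51.2 to 8.42 CPM. E2f1, an activator of S-phase genes, was at 32.4, 47.1 and 53.6 CPM. Among the inhibitors of the cell cycle 3 of 14 were higher by at least 2-fold and 2 lower, where 17.0% of all genes were higher and 8.96% lower. The first were Cdkn1a, Gadd45b and Btg2 and the others Wee1 and Cdkn2c. Cdkn1a, the CDK inhibitor p21, was at 202, 274 and 549 CPM, 2.71-fold higher with 5-AZA-CdR. Of 8 G1 cyclins and kinases 1, Cdk2, was lower by at least 2-fold, where 8.96% of all genes were. With ADAR1i-124, 3 of the 45 (Oip5, Hmgb2 and Pttg1) and 3 of the 35 (Gins1, Rfc4 and E2f2) were lower by at least 2-fold and 1, Cdt1, was higher, where 8.70% of all genes were lower, a share near that of both lists. Of the cell cycle genes named in this paragraph, those outside the largest 3 of their list, E2f1 apart, were picked after their values were seen. Markers of other cell types moved with 5-AZA-CdR: the summed level of 5 fibroblast markers was 69.7 CPM with DMSO, 358 CPM with ADAR1i-124 and 668 CPM with 5-AZA-CdR, that of 3 endothelial markers 4.06, 18.4 and 83.04 CPM, nearly all of it Cdh5, and that of 6 leukocyte markers 8.52, 19.5 and 77.1 CPM, nearly all of it Cd68. Of the fibroblast markers, Pdgfra went from 5.23 CPM with DMSO to 150.4 CPM with 5-AZA-CdR, Dcn from 0.411 to 129 CPM, Col1a1 from 3.88 to 44.00 CPM and Col1a2 from 60.2 to 344 CPM, and Thy1 had no count. Of the leukocyte markers, Ptprc went from no count to 1.21 CPM. The part of these genes in the result was not tested.

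In RNA precipitated with J2 all 41 members were higher by at least 2-fold in J2 with ADAR1i-124 than in J2 with DMSO, and 7.37% of all genes were. The median log2 difference was 2.09 (1.94 to 2.22), against 0.00 for all genes, and the summed level was 4.55-fold higher (4.48 to 4.62). With 5-AZA-CdR no member passed the line in either direction (14.6% of all genes did), with a median of 0.13 (-0.03 to 0.19), and with the combination none did either (12.1% of all genes), with a median of -0.15 (-0.32 to -0.01). These comparisons share the DMSO library of J2, in which the members were 3.76-fold lower in sum than in IgG. With IgG in place of DMSO the count past 2-fold with ADAR1i-124 was 0 of 41 (10.1% of all genes), and the count lower by at least 2-fold was 40 with 5-AZA-CdR (5.57%) and 40 with the combination (7.98%). Markers of other cell types moved with the comparison of ADAR1i-124 with DMSO: the summed level of the 5 fibroblast markers was 413 CPM in J2 with DMSO and 27.4 CPM with ADAR1i-124, of which Col1a2 363 and 22.8 CPM. With 5-AZA-CdR and the combination it was 23.1 and 69.1 CPM. The 6 leukocyte markers were at 59.9, 6.67, 17.9 and 18.4 CPM in the order DMSO, ADAR1i-124, 5-AZA-CdR, both drugs, nearly all of it Cd68, and the 3 endothelial markers at 8.54, 3.75, 61.7 and 60.9 CPM. The part of these markers in the result was not tested.

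Mki67 was at 167 CPM in J2 with DMSO, 1171 CPM with ADAR1i-124, 134 CPM with 5-AZA-CdR and 167 CPM with the combination. Its difference between ADAR1i-124 and DMSO (2.81, 2.74 to 2.88) was the largest of the 41, followed by Kif11 (2.52) and Hmmr (2.43). The smallest were those of Bub1b (1.40), Cdc25c (1.51) and Incenp (1.65). Ccnb1 was at 38.1, 143, 41.3 and 27.4 CPM in the same order of libraries, Cdk1 at 56.8, 260.4, 101 and 59.8 CPM, and Top2a at 161, 749, 238 and 196 CPM. In each of these genes the library with ADAR1i-124 stood alone at the top. Plk1 was at 20.03, 88.4, 21.5 and 15.98 CPM, Cdc20 at 20.2, 103, 23.01 and 14.2 CPM and Aurkb at 9.19, 40.7, 13.2 and 8.92 CPM. Cdk1 had the largest difference between 5-AZA-CdR and DMSO (0.83, 0.70 to 0.97), ahead of Top2a (0.56) and Aurka (0.56), and Bub1b (-0.53), Cdc25c (-0.51) and Anln (-0.40) lay at the other end. With the combination, Kif11 (0.37), Nusap1 (0.30) and Top2a (0.29) lay highest and Bub1b (-0.81), Ccnb2 (-0.66) and Cdc25c (-0.66) lowest.

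Without the DMSO library the treatments with 5-AZA-CdR were below ADAR1i-124. Both comparisons share the J2 library with ADAR1i-124, the one apart on the members. All 41 members were lower by at least 2-fold in J2 with 5-AZA-CdR than with ADAR1i-124 (5.68% of all genes, median -2.03 less that of all genes, with an interval of -2.08 to -1.86 before that step), a comparison added after the data had been seen, and all 41 were lower with the combination than with ADAR1i-124 (5.64% of all genes, median -2.24, -2.37 to -2.14). Between the combination and 5-AZA-CdR no member passed the line (2.08% of all genes did), and the median was -0.28 (-0.38 to -0.21). Against IgG, 40 of the 41 were lower by at least 2-fold in J2 with DMSO (8.97% of all genes), 40 with 5-AZA-CdR (5.57%) and 40 with the combination (7.98%), and with ADAR1i-124 none passed the line in either direction (10.1%). Incenp was the exception in each of these 3 libraries, at -0.88, -0.92 and -0.94. The median ratio to IgG with ADAR1i-124 was 0.12 (0.05 to 0.24). No member was thus 2-fold or more above the single IgG library in J2. That library held the 27 genes induced by 5-AZA-CdR at 3.59 CPM, as did libraries without the drug. For both libraries with 5-AZA-CdR the ratio to IgG therefore also holds the difference seen in total RNA. It cannot show whether J2 enriched the members there.

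Against total RNA of the same treatment, all 41 members were lower by at least 2-fold in J2 with DMSO (17.3% of all genes), with a median of -1.91. With ADAR1i-124, 4 (Cenpf, Cdk1, Cenpe and Top2a, named after their values were seen) were higher by at least 2-fold (5.04% of all genes) and the median was 0.51. With 5-AZA-CdR, 16 were higher (4.94%) and all 41 lay above 0, with a median of 0.90, where all genes had -0.37. Thus Ccnb1 was at 13.3 CPM in total RNA and 41.3 CPM in J2 with 5-AZA-CdR, and Cdc20 at 6.97 and 23.01 CPM. With ADAR1i-124, 35 of the 41 were lower than DMSO in total RNA and higher than DMSO in J2, by any amount, as were 27.7% of all genes. With 5-AZA-CdR 26 did so, and 25.4% of all genes, but 15 members were lower in both. No member passed 2-fold in J2 there (14.6% of all genes did). With IgG in place of the J2 library with DMSO the counts were 26 (24.7% of all genes) and 0 (13.9%). These counts rest on 1 library of each kind, and the difference between fractions was not tested.

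**Figure D3:**
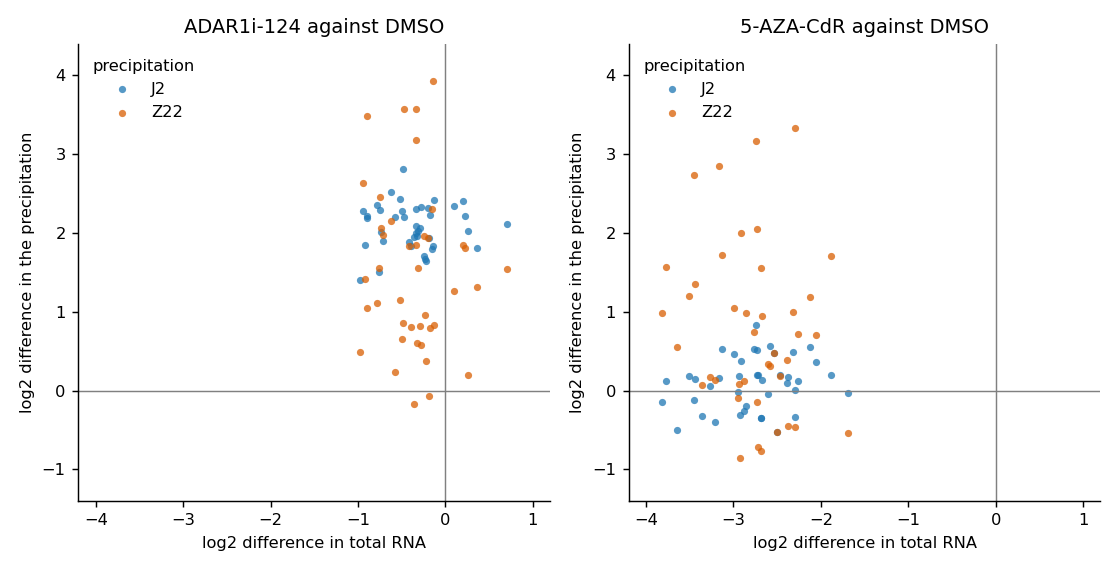
Each point is 1 member, with its log2 difference from DMSO in total RNA on the x axis and in J2 (blue) or Z22 (orange) on the y axis (CPM plus 0.5, 1 library per condition). With ADAR1i-124 the points lie between -0.98 and 0.71 in total RNA, and 41 in J2 (7.37% of all genes) and 26 in Z22 (42.9%) lie above 1, and with 5-AZA-CdR they lie between -3.82 and -1.69 in total RNA and between -0.53 and 0.83 in J2.

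In the Z22 precipitation the median of the members was higher than in DMSO with ADAR1i-124, though not higher than in IgG, and lower than in both with the combination. With ADAR1i-124, 26 of 41 were higher by at least 2-fold, but so were 42.9% of all genes, whose median was 0.81. Less that median, 17 were higher by at least 2-fold (17.6% of all genes). With 5-AZA-CdR 14 were higher (52.1% of all genes), and less the median of all genes 9 were lower (19.3%), a share of the members near the background. With the combination 33 were lower (5.03%), and 38 less the median of all genes (17.6%). The medians were 1.41 (0.86 to 1.85), 0.70 (0.18 to 1.05) and -1.96 (-2.39 to -1.25) for ADAR1i-124, 5-AZA-CdR and the combination, and the summed level was 1.93-fold higher (1.91 to 1.96) with ADAR1i-124 and 5.36-fold lower (5.21 to 5.51) with the combination. All 3 comparisons share the DMSO library, the library led by Gm42418, which also had the highest summed level of fibroblast markers (1132 CPM, of which Col1a2 1053 CPM). The part of these values in the result was not tested. With IgG in place of that library 1 member was higher by at least 2-fold with ADAR1i-124 (7.15% of all genes) and the median, whose interval held 0, was -0.15 (-0.36 to 0.04), against -0.05 for all genes, and the count lower with the combination was 41 (10.7%).

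Single members differed far more in Z22 with DMSO than in any other library. The standard deviation of their log2 ratio to IgG was 1.32 there, against 0.30 to 0.63 in the other 10. Mad2l1, the checkpoint protein that inhibits CDC20, was at 5.16 CPM in Z22 with DMSO and 96.97 CPM in IgG, while Cenpe was at 323 and 229.6 CPM. Mad2l1 accordingly had the highest log2 difference from DMSO of the 41 with each treatment. It was at 85.9 CPM with ADAR1i-124 (3.93), 56.7 CPM with 5-AZA-CdR (3.34) and 10.7 CPM with the combination (0.99). Ccna2 (12.1, 150.4, 83.9 and 7.98 CPM in the order DMSO, ADAR1i-124, 5-AZA-CdR, both drugs) and Bub1 (5.84, 75.2, 45.2 and 6.34 CPM) followed with ADAR1i-124, and Cdk1 (15.8, 183, 147 and 21.9 CPM) and Bub1 with the other treatments. At the other end stood Dlgap5 (91.3, 80.7, 55.5 and 8.96 CPM), Tpx2, the activator of Aurora A (280.5, 268, 165 and 35.5 CPM), Prc1 (209, 239, 152 and 22.96 CPM) and Cenpe (323, 379.9, 178 and 27.9 CPM). In these 4 genes ADAR1i-124 lay within 0.23 of DMSO on the log2 scale, and the combination was the lowest.

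Mki67 was at 713, 1295, 747 and 109 CPM in the same order of the 4 Z22 libraries, and Top2a at 283, 585, 352 and 48.3 CPM. Ccnb1 was at 25.8, 102, 77.1 and 12.6 CPM, Plk1 at 30.02, 88.5, 39.4 and 7.32 CPM, Cdc20 at 20.6, 80.5, 48.2 and 9.40 CPM and Aurkb at 10.7, 39.8, 21.8 and 4.26 CPM. In all 6 the combination was the lowest, 5-AZA-CdR the second highest and ADAR1i-124 the highest. By role, the median with ADAR1i-124 ran from 0.51 for the spindle microtubule proteins to 2.31 for cytokinesis, on 6 and 3 genes. With IgG in place of DMSO these medians were -0.11 and -0.15, so that this order rests on the DMSO library. Genes of G1/S and DNA replication were at 2.10 and other G2/M genes at 1.50 against DMSO, and at -0.26 and -0.22 against IgG.

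Other comparisons, without the DMSO library, set the combination against each drug alone. Both rest on a single Z22 library with the combination, whose ADAR1i-124 dose was not given. Its drugs were given for 72 h and then 12 h, against 12 h for ADAR1i-124 alone. The part of dose and time in these differences was not tested. All 41 members were lower by at least 2-fold in Z22 with the combination than with 5-AZA-CdR alone (7.11% of all genes), with a median of -2.57 (-2.71 to -2.35) and a summed level 6.18-fold lower (6.01 to 6.36). All 41 were also lower with the combination than with ADAR1i-124 alone (6.30%), with a median of -3.32 (-3.47 to -3.08) and a summed level 10.4-fold lower (10.1 to 10.6). Markers of other cell types differed between these libraries: in the order ADAR1i-124, 5-AZA-CdR, both drugs, the summed level was 129, 27.7 and 90.7 CPM for the 5 fibroblast markers, 13.1, 40.8 and 53.7 CPM for the 6 leukocyte markers and 4.36, 32.2 and 26.7 CPM for the 3 endothelial markers. Their part in the result was not tested. Plk1 fell from 88.5 to 7.32 CPM (-3.51, -3.97 to -3.24), Mki67 from 1295 to 109 CPM (-3.56, -3.66 to -3.47), and Aurkb from 39.8 to 4.26 CPM (-3.08, -3.73 to -2.75). Between 5-AZA-CdR and ADAR1i-124 6 of 41 were lower by at least 2-fold (2.03%), with a median of -0.73 (-0.84 to -0.65). In J2 the same step from 5-AZA-CdR to the combination passed the line for none of the 41, as given above. Whether the fractions differ in this step was not tested, since each holds 1 library per treatment. The median of all genes in the comparisons of the combination with a single drug was -0.18 and 0.00 in Z22.

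Against IgG, 25 members were lower by at least 2-fold in Z22 with DMSO, where 45.4% of all genes were, 16 with 5-AZA-CdR (5.13%) and all 41 with the combination (10.7%). With ADAR1i-124, 1 member passed the line, Incenp, at 1.24, upward (7.15% of all genes did). Incenp had the highest ratio to IgG of the 41 in 8 of the 11 libraries, total RNA with 5-AZA-CdR included. These ratios share 1 IgG library, which in the label check stood with the libraries without 5-AZA-CdR. Incenp was at 70.1 CPM in IgG, below its 95.9 CPM in total RNA with DMSO. No other member led in more than 1 library.

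**Figure D4:**
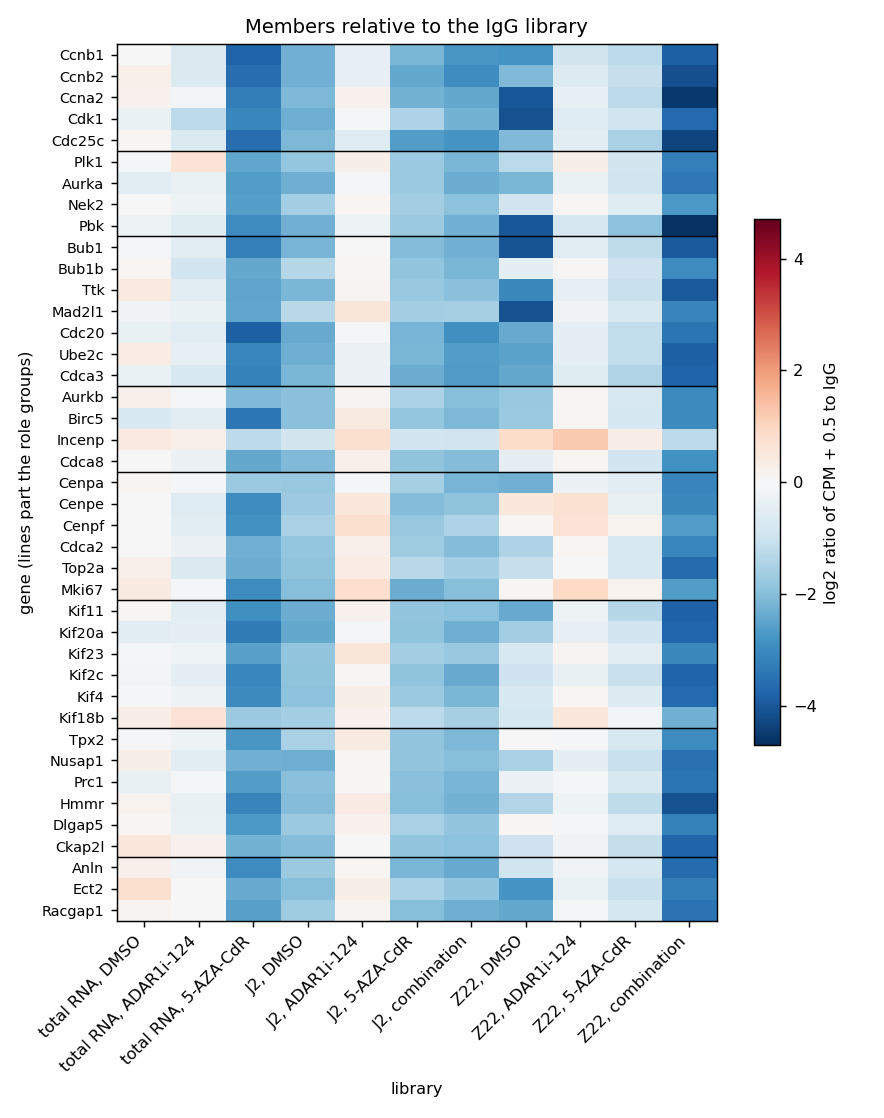
Colour gives the log2 ratio of each member (rows, in role groups parted by lines) to the IgG library in each of 11 libraries (columns), on CPM plus 0.5. The columns of total RNA with 5-AZA-CdR and of Z22 with the combination are blue throughout, with medians of -2.73 and -3.44, and the column of Z22 with DMSO runs from -4.11 to 0.86.

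The antibodies were compared with each other over 4 pairs of J2 and Z22 of the same treatment. By edgeR's quasi-likelihood test with treatment as a block, no member differed between Z22 and J2 after Benjamini-Hochberg adjustment over all 14366 genes tested, and neither did any other gene (0% called). At an unadjusted p under 0.05, 2 members and 3104 genes in all would have been called. The members were Pbk, a mitotic kinase of the MAPKK type (log2 difference of Z22 from J2 -1.02, standard error 0.34, edgeR adjusted p = 0.158), and Incenp (0.98, standard error 0.40, edgeR adjusted p = 0.214). Pbk was lower in Z22 than in J2 in each of the 4 treatments (10.7, 44.2, 15.4 and 10.6 CPM in J2 and 2.86, 30.1, 13.5 and 1.64 CPM in Z22). DESeq2 with the same design called 1 member, Pbk, and 891 of 13379 genes (6.66%). Mki67, with the largest difference of the 41 (1.23, standard error 0.59), was higher in Z22 in 3 of the 4 treatments and lower with the combination. Without the pair of DMSO libraries edgeR called 850 of 14765 genes (5.76%) and 0 members.

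Their differences in total RNA between 5-AZA-CdR and DMSO followed those between the combination and ADAR1i-124 with a Spearman's rho of 0.51 in J2 and 0.54 in Z22, over 41 genes and with no library in common, and those between 5-AZA-CdR and ADAR1i-124 with 0.37 in J2 and 0.03 in Z22. With the differences between 5-AZA-CdR and DMSO rho was 0.22 in J2 and -0.18 in Z22. These values are descriptions across genes, which share length and base composition and are not replicates. The length and base composition of the longest annotated transcript were set against the differences in Z22: between ADAR1i-124 and DMSO, rho was -0.25 with length and -0.17 with GC content over the 41, and -0.04 and -0.47 over 10922 protein-coding genes. The 20 members with transcripts of 3334 bases or more had a median of 1.08, and the 21 others of 1.81. Against IgG in place of DMSO, rho over the 41 was 0.41 with length and 0.19 with GC content, and the medians were -0.07 and -0.32, so that both signs and the order turned with the library compared.

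**Figure D5:**
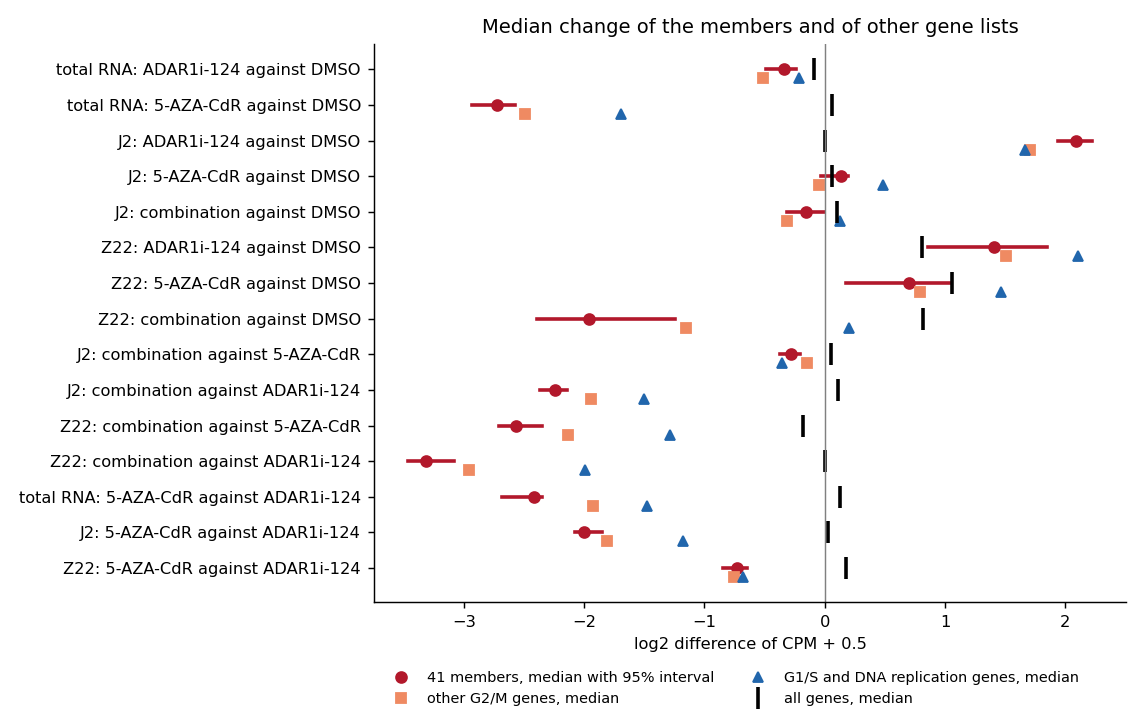
Median log2 differences (CPM plus 0.5) of the 41 members (red, with the 95% interval of the median), other G2/M genes (orange squares), genes of G1/S and DNA replication (blue triangles) and all genes tested (black bars) in 15 comparisons. The members lie at -2.73 in total RNA with 5-AZA-CdR against DMSO, at 2.09 in J2 with ADAR1i-124 against DMSO and at -3.32 in Z22 with the combination against ADAR1i-124, where the genes of G1/S lie at -1.69, 1.66 and -1.99.

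Outside the 41, 1248 genes passed the same line downward in total RNA after 5-AZA-CdR, and they had a median of 0.72 in J2 with ADAR1i-124 against DMSO, where 36.6% of the 1217 tested were higher by at least 2-fold, and a median of -0.79 in J2 with 5-AZA-CdR against ADAR1i-124. Both medians were smaller in size than those of the members. Other G2/M genes were at 1.71 and genes of G1/S and DNA replication at 1.66 in J2 with ADAR1i-124 against DMSO, with 40 of 45 and 29 of 35 higher by at least 2-fold (7.37% of all genes). Against IgG, the medians were 0.13 and 0.06, and 0 genes of either list were higher by at least 2-fold. Foxm1 was at 32.3, 104, 25.4 and 26.3 CPM in the 4 libraries of J2, ordered as DMSO, ADAR1i-124, 5-AZA-CdR and then both drugs, and at 88.5, 149.8, 117 and 23.5 CPM in Z22 in the same order. Mybl2 was at 13.3, 59.5, 12.4 and 14.2 CPM in J2 and 19.9, 65.3, 37.6 and 10.6 CPM in Z22. Both were highest with ADAR1i-124 in each fraction, and lowest with the combination in Z22. Cdkn1a ran the other way in J2, at 238, 109.8, 319.8 and 260.2 CPM, and in Z22 it was at 84.7, 147, 220.4 and 287 CPM.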

How the data were processed

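RNA was measured in 13 libraries of YUMM1.7 cells, 1 per condition: total RNA (rRNA-depleted) and RNA precipitated with J2, Z22 or IgG after digestion with RNase I and DNase. The authors aligned paired reads to mm10 with STAR through snakePipes and deposited raw counts per GENCODE gene, unnormalised. The tool and strand setting of the counting are not given in the sources used here, and 12 members share exon bases with a gene on the other strand, from which their counts could not be told apart without strand. Every column of the table had a label (columns without a sample, 0). The total RNA library of the combination was left out because its counts follow the other strand.

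Each count was scaled to CPM (per 1000000 counts of its library), and differences were taken as log2(CPM + 0.5) over the genes whose mean over the 2 libraries compared reached 1 CPM. The line was 2-fold, fixed for all comparisons. Intervals of ratios are exact (Clopper-Pearson, 95%), intervals of medians are binomial, and both cover counting error or the spread of genes, not replicates. Those of ratios were taken on the counts without the added 0.5, so at low levels they are not centred on the difference. Deeper libraries give narrower intervals. J2 and Z22 were compared as pairs of the same treatment with edgeR 4.0.16 (quasi-likelihood, Benjamini-Hochberg, 0.05), with DESeq2 1.42.0 as an alternative, in R 4.3.3. Here the treatment is the block, and the 4 pairs are different treatments, not repeats. Scripts ran in Python 3.11.15 with pandas 2.3.3, scipy 1.17.1 and matplotlib 3.10.9, and were tested on simulated data. Symbols, positions and lengths came from GENCODE M21 on GRCm38, promoters from RefSeq.

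The members, the gene lists and the tests were chosen with earlier results of these data known. Named one by one are Ccnb1, Cdk1, Plk1, Cdc20, Aurkb, Top2a, Mki67, the 5 members with the largest difference on either side in each total RNA comparison and the 3 on either side in each comparison of a precipitation with DMSO. Of other genes, Foxm1, Mybl2, E2f1, Cdkn1a and up to 3 per list are named. Outside this rule, Pbk, Ube2c, Cdca8, Cenpf, Ect2 and Racgap1 were named after their values were seen. Other pseudocounts, filters, scalings, lines and left-out libraries were tried.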

Additional observations from a re-analysis of the deposited data

Results flagged for a closer look

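The median log2 difference of the 41 members from DMSO, less that of all genes, had opposite signs between fractions in 4 pairs of comparisons. Every group held 1 library, and none of these differences was tested. With ADAR1i-124 the median was -0.24 in total RNA and 2.09 in J2, a gap of 2.33, and in Z22 it was 0.60, a gap of 0.84 from total RNA. With 5-AZA-CdR it was -2.79 in total RNA and 0.08 in J2, a gap of 2.86. With 5-AZA-CdR it was -0.36 in Z22, and Z22 minus J2 was -0.44. In J2 with 5-AZA-CdR the interval of the median over genes held 0, with 26 members above 0 and 15 below, and genes are not replicates of the treatment. Before all genes were subtracted the medians were 0.13 in J2 and 0.70 in Z22. Without a filter Z22 turned to 0.12. The comparisons within J2 and within Z22 each share 1 DMSO library, and of these the Z22 library correlated least with the others over all genes, while the J2 library did not stand apart there. With IgG in place of DMSO the medians were 0.13 in J2 and -0.10 in Z22 with ADAR1i-124, so that the sign in Z22 was then that of total RNA, and -1.90 in J2 and -1.08 in Z22 with 5-AZA-CdR.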

How the results depend on the processing

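Of 127 recomputed counts of members 111 stayed within 1.5 times the reported count. Of 158 recomputed medians, each less that of all genes, 147 stayed inside the 95% interval of the reported median. The recomputations used other pseudocounts, filters, scalings and lines, and those with the IgG or ADAR1i-124 library in place of DMSO are included. With IgG in place of the DMSO libraries, chosen after the data were seen, J2 gave 0.13 and 0 members past 2-fold for ADAR1i-124, -1.90 and 40 for 5-AZA-CdR, and -2.27 and 40 for the combination. Z22 gave -0.10, a reversal, and 1 member for ADAR1i-124, -1.08 for 5-AZA-CdR and -3.45 for the combination. With the ADAR1i-124 library in place of DMSO, total RNA with 5-AZA-CdR gave -2.55. At a 4-fold line 26 members passed in J2 with ADAR1i-124 (3.53% of all genes), and 10 (14.1%), 5 (20.9%) and 19 (15.3%) in Z22 with ADAR1i-124, 5-AZA-CdR and the combination. At 1.5-fold 12 passed in total RNA with ADAR1i-124 (36.6%), 1 (32.8%) and 5 (29.2%) in J2 with 5-AZA-CdR and the combination, 3 in J2 between the combination and 5-AZA-CdR (10.8%), and 24 in Z22 with 5-AZA-CdR (73.6%). In Z22 with ADAR1i-124, 17 members were higher by at least 2-fold with TMM factors (22.6% of all genes) and 15 with DESeq2 factors (18.2%). Less the median of all genes 17 were higher (17.6%). In either direction 17 passed with TMM factors (37.1%) and 16 with DESeq2 factors (37.02%). Without a filter the medians in Z22 were 1.06 with ADAR1i-124 and 0.12 with 5-AZA-CdR, a reversal in which more genes of low level entered the median of all genes. A pseudocount of 2 moved the combination against ADAR1i-124 in Z22 to -3.00, and a mean of at least 10 CPM moved 5-AZA-CdR against IgG in Z22 to -0.94. The edgeR test paired over treatments called 0 members (0% of all genes). Without a filter it called 5 (4.65%), of which Pbk and Mad2l1 were lower in Z22 and Incenp, Cenpe and Mki67 higher. DESeq2 called 1 (6.66%). The edgeR test called 0 without the block (0%) and 0 members without each of the 4 pairs in turn (0% to 5.76%). The combined treatment was not analysed in total RNA, and no treatment had a repeat, so that differences between cultures could not be set against any of these values.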
